A study of Homo sapiens with 13 samples.

Results

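Nalm6, an established human line of B-cell acute lymphoblastic leukaemia, was profiled by CUT&RUN with an antibody against LEF1, and 1012 of 43042 LEF1 regions stood among the top LEF1 peaks of all 3 prednisolone libraries and of none of the 3 control libraries (2.35% of the regions). These are called the gained LEF1 regions. They were chosen by the measured LEF1 values themselves: each of the 6 LEF1 peak lists was cut to the 20000 peaks with the highest fold over background, peaks of different lists that shared at least 1 bp were merged into regions, and a region was kept when it held such a top peak in every prednisolone list and in no control list. In CUT&RUN an antibody directs a nuclease to the chromatin that its target occupies, and the released fragments are sequenced. The prednisolone cells had received 5 µM of this synthetic glucocorticoid for 24 h. The control cells are given a vehicle in the labels' protocol and no treatment in another field, so they are called controls here. All cells, controls included, were grown in medium with charcoal-stripped serum, which is poor in steroid hormones. The line and its culture were the same in every group, and the 3 replicates of a group came from independent experiments per the series description. The same 2 treatments were profiled with an antibody against TCF7L2, again with 3 replicates each, which gives 12 peak lists over 4 combinations of antibody and treatment.

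LEF1 and TCF7L2 are transcription factors of the TCF/LEF family. They bind DNA through a closely related HMG box, repress their targets together with TLE corepressors when the Wnt pathway is silent, and activate them once beta-catenin enters the nucleus and docks on them. LEF1 is prominent in immature lymphocytes and in lymphoblastic leukaemia, whereas TCF7L2 is better known from gut epithelium, liver and the nervous system. Glucocorticoids act through the glucocorticoid receptor, itself a transcription factor that moves to the nucleus on binding its ligand, and they kill susceptible lymphoid cells, which is why prednisolone is given in this leukaemia. The title of the series sets glucocorticoid against canonical Wnt signalling. The comparisons below describe where LEF1 peaks entered the top of the lists after prednisolone and what TCF7L2 peaks did at the same places.

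The lists held between 128863 and 395786 peaks. The last of the 20000 top peaks stood at a fold of 4.73 to 5.19 in the LEF1 lists and of 3.10 to 3.26 in the TCF7L2 lists. The TCF7L2 lists were thus much weaker at the limit, and 58.9% to 88.2% of their top peaks had a −log10 q-value under 2, against 0% of the top LEF1 peaks. This share was 70.1%, 67.55% and 58.9% in TCF7L2 control libraries 1, 2 and 3. It was higher in TCF7L2 prednisolone libraries 1, 2 and 3, at 72.8%, 85.8% and 88.2%. Read depth was not used here, and folds were not scaled between libraries. Regions and top peaks were therefore taken by rank within a list. Folds of different libraries that are set side by side below are unscaled descriptions. A lower value in a library cannot tell occupancy in fewer cells from weaker occupancy in each cell.

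Read by the values that chose them, the gained regions were mostly of moderate LEF1 strength in both conditions, to either side of the limit. The strongest LEF1 peak in a region had a median fold of 3.80, 3.71 and 3.62 in control libraries 1, 2 and 3, where a peak was listed, and of 6.29, 6.65 and 6.39 in prednisolone libraries 1, 2 and 3. The order of these medians is fixed by the choice and is given as a description. For a single region, the lowest-ranked of the 3 prednisolone peaks, called its worst rank, had a median of 14462 and a range of 17 to 19949. It was within the first 1000 in 14 regions, within the first 5000 in 82 and within the first 10000 in 263. On the control side, the best rank had a median of 32637 over the 985 regions with a control peak, and 232 of these lay between the limit and rank 25000. In 73 regions the best control peak ranked beyond 100000.

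Weaker LEF1 peaks were listed at many gained regions in control cells. In the full control lists, which run down to a p-value of 0.05, 855 of the 1012 regions held a weaker LEF1 peak in all 3 libraries (84.5%, 95% Clopper-Pearson interval 82.1% to 86.7%), 88 in 2, 42 in 1 and 27 in none (2.67%, 1.77% to 3.86%). These intervals cover counting error only. Once control peaks below 2 in −log10 q were set aside, 41.0% held one in all 3 control libraries. That share was not computed for all LEF1 regions. Among all 43042 regions 91.5% held a control peak in all 3 full lists, and 322 (0.748%) held one in none. These include regions with a top control peak, which the gained regions lack by the choice, so the comparison is not a like one. In the opposite pattern, 707 lost regions with a top peak in all 3 control lists and no prednisolone list, a weaker prednisolone peak was listed in all 3 libraries at 96.2%, and 0 of 707 had no such peak in any of them.

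The limit divides regions with nearly equal values. The last region inside it by worst rank, chr20:57676400-57677572 (hg19, as all coordinates here), had LEF1 folds of 5.10, 4.99 and 4.99 in the prednisolone libraries and of 2.72, 3.57 and 2.50 in the controls. The first region outside it, chr3:46596671-46597393, had 5.61, 4.99 and 4.99 in the prednisolone libraries and 3.80, 5.10 and 4.0 in the controls, and missed the limit with a worst rank of 20015. By the control side, chr2:79317741-79319411 was kept with a best control rank of 20016, at 5.19 in control 1, while chr17:37975335-37976562 was left out with a best control rank of 19985, also at 5.19 in control 1. Membership near the limit is a matter of a few ranks. The leading regions below are far from it by their prednisolone ranks, but not all by their control ranks. Among them, chr12:93696040-93697798 had a best control rank of 20617 and chr2:206643932-206647143 of 22882.

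The leading gained region by worst rank was chr16:77793157-77796870, 3714 bp wide. Its LEF1 fold was 43.8, 29.4 and 38.7 in prednisolone libraries 1, 2 and 3, which put it at rank 2, 17 and 3 of the lists, and 3.26, 3.57 and 4.50 in control libraries 1, 2 and 3, with a best control rank of 28951. All 3 LEF1 prednisolone values were thus among the strongest peaks of their libraries, while the control values were below the limit. TCF7L2, which took no part in the choice, had a fold of 12.4, 13.0 and 16.0 in its prednisolone libraries and of 2.35, 2.61 and 2.74 in its controls. The TCF7L2 groups did not overlap either, and the region was ranked 277, 183 and 123 in the TCF7L2 prednisolone lists.

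The region chr4:54230530-54235855 came next. Its LEF1 fold was 28.5, 29.0 and 30.2 after prednisolone and 4.30, 3.84 and 4.10 in control cells. Here TCF7L2 was already a top peak in all 3 controls, at 4.24, 3.26 and 6.27, and stood at 11.1, 7.89 and 9.41 after prednisolone. Both factors were thus listed in both conditions, with every prednisolone value above every control value.

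At chr12:93696040-93697798 the LEF1 fold was 37.2, 22.7 and 24.3 after prednisolone and 3.08, 4.33 and 5.00 in control cells, the last at rank 20617. TCF7L2 stood there at 5.86, 3.38 and 5.35 after prednisolone and at 2.35, 3.26 and 1.93 in control cells, a narrow separation between prednisolone 2 and control 2. At chr3:34631284-34636076 LEF1 ranked 38885 at best in control cells and 234 at worst after prednisolone, with folds of 19.1, 22.7 and 25.1 against 4.18, 3.00 and 3.01. TCF7L2 had 6.74, 4.34 and 2.58 in the prednisolone libraries and 2.24, 2.29 and 1.81 in the controls, so that prednisolone 3 was close to the controls.

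The region chr14:104513613-104517179 had LEF1 folds of 18.4, 25.6 and 16.6 after prednisolone. Control 1 stood at 3.83 and control 3 at 2.10, and control 2 listed no peak there. TCF7L2 had 3.20, 5.69 and 4.62 after prednisolone and a single control peak, of 2.23 in control 2. A like absence of TCF7L2 control peaks marked chr10:319358-321697, where LEF1 had 15.5, 17.8 and 18.0 against control values of 3.84, 3.94 and 4.29, while TCF7L2 was listed in no control library and had 4.09, 2.23 and 2.57 after prednisolone. Only the first of these 3 TCF7L2 peaks was a top peak of its list.

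At chr5:54204387-54210879, 6493 bp wide, LEF1 had 15.2, 20.8 and 19.2 after prednisolone and 4.14, 3.60 and 4.45 in control cells, and TCF7L2 had 6.74, 3.57 and 4.98 against 3.36, 3.09 and 2.42. At chr2:206643932-206647143 LEF1 had 16.0, 14.4 and 13.7 against 4.90, 2.82 and 3.50, and TCF7L2 had 5.21, 4.51 and 2.67 after prednisolone with 1 control peak, of 2.51. The TCF7L2 folds of prednisolone 3 and control 2 at the second of these regions hardly differed. Their ranks were 46018 and 112525, in lists of 144091 and 329941 peaks. Next in order came chr3:119625469-119628759, where LEF1 had 14.1, 26.4 and 16.8 against 2.42, 3.57 and 4.0. TCF7L2 had 5.44, 7.89 and 3.85 there, and 1.96 in the only control library that listed it.

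The last regions among the leading 12 were 2 on chromosome 9 and 1 on chromosome 22. At chr9:9903266-9905074 LEF1 had 15.8, 13.3 and 15.2 against 3.26, 2.03 and 3.50, whereas TCF7L2 had 4.56 and 2.03 in prednisolone 1 and 2 and no peak in prednisolone 3 or in any control. This was the only 1 of the 12 that TCF7L2 prednisolone 3 did not list. At chr9:84270272-84272591 LEF1 had 20.3, 21.1 and 13.4 against 3.08, 1.99 and 2.42, with TCF7L2 at 8.85, 2.84 and 4.58 and, in control 2 only, at 1.77. At chr22:33248010-33250710 LEF1 had 13.8, 19.96 and 13.9 against 2.72, 2.80 and 4.0, and TCF7L2 had 5.86, 4.51 and 3.74 against 2.57 in its only control peak. In none of the 12 did a listed TCF7L2 control peak exceed the lowest listed TCF7L2 prednisolone peak. At chr10:319358-321697 and chr9:9903266-9905074 there was no listed control peak to compare. Margins could be narrow, as with 2.67 against 2.51 at chr2:206643932-206647143, and the folds are unscaled. The same comparison was not made over other LEF1 regions, so it cannot be called a trait of the leading ones.

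**Figure D1:**
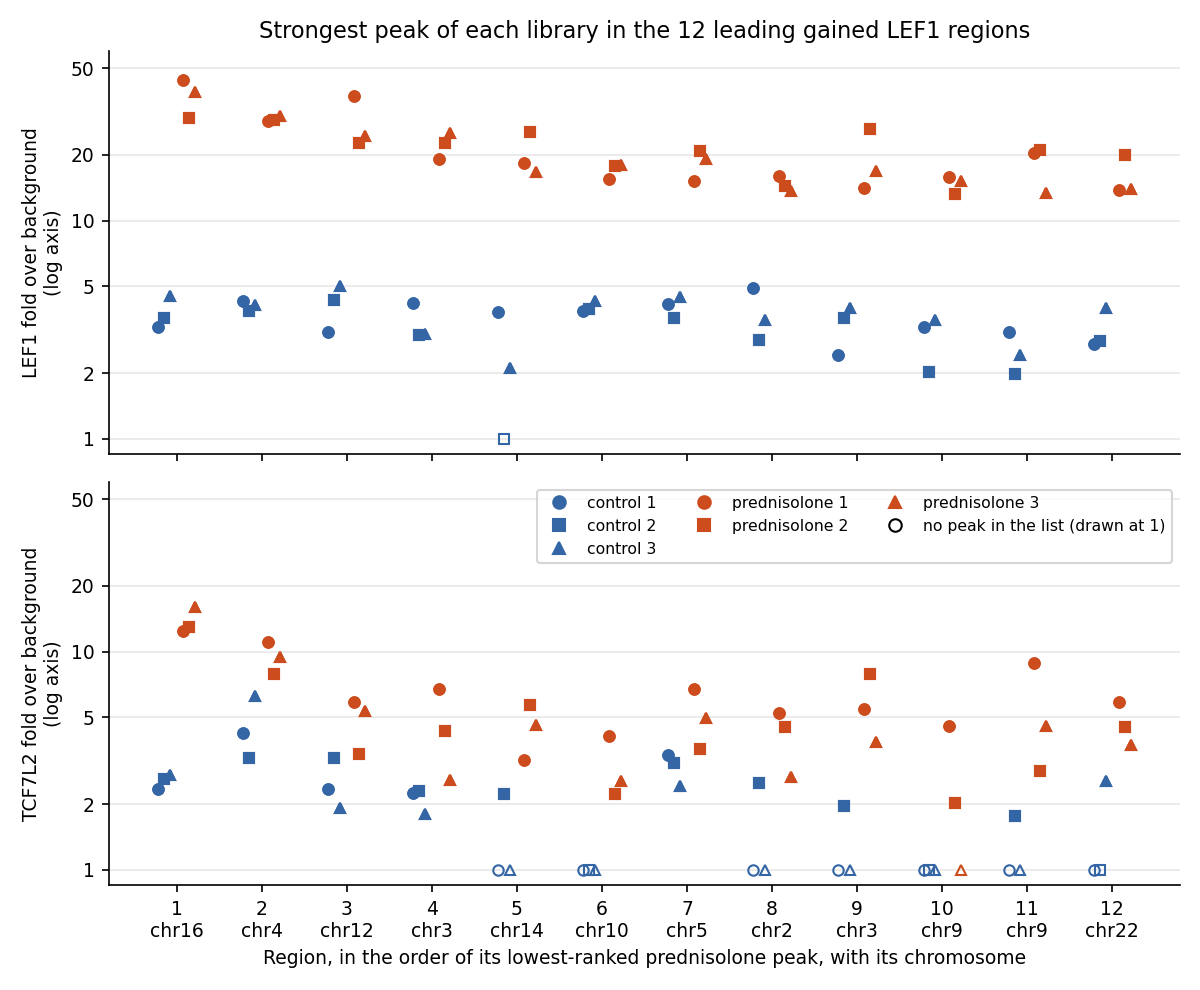
Fold over background of the strongest peak in each LEF1 library (upper panel) and TCF7L2 library (lower panel) at the 12 leading gained LEF1 regions, on a log axis; each point is 1 library, and an open symbol at 1 marks a library that listed no peak. LEF1 values lie between 13.3 and 43.8 after prednisolone by the choice of the regions, while TCF7L2, not used in the choice, reaches 16.0 in the first region and 4.56 at most in the tenth.

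Regions without any LEF1 peak in a full control list numbered 27 (2.67%, against 0.748% of all LEF1 regions). The strongest was chr8:99414289-99416143, where LEF1 had 13.1, 16.5 and 13.8 in the prednisolone libraries. TCF7L2 was also absent from all 3 of its control lists there and had 5.89, 7.45 and 3.53 after prednisolone, each a top peak. At chr20:34197679-34200229 LEF1 had 11.8, 9.42 and 9.09 after prednisolone, and TCF7L2 had 7.24, 2.76 and 2.86, with 1.88 in control 2 only. At chr1:18403300-18405303 LEF1 had 8.67, 10.5 and 9.95, and TCF7L2 had 3.91, 2.82 and 3.74, with 2.93 in control 1 only. The control 1 peak ranked 25546 in its list and the prednisolone 2 peak 25016, which is close in rank.

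The next of these had weaker or missing TCF7L2 peaks. At chr6:29002260-29004280 LEF1 had 9.18, 12.8 and 7.97, and TCF7L2 had 3.26, 3.95 and 2.67, against 2.35 in control 1. At chr1:239748089-239749526 LEF1 had 12.2, 7.88 and 11.4, but no TCF7L2 peak there was a top peak, with 2.72 and 1.93 in prednisolone 1 and 3 and none elsewhere. At chr11:114063202-114064290 LEF1 had 7.62, 9.40 and 7.93, and TCF7L2 had 4.33 and 3.00 in prednisolone 1 and 3, against 1.66 and 1.86 in control 1 and 2. The number of TCF7L2 prednisolone libraries with a top peak thus ran from 0 to 3 over these 6 regions.

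The TCF7L2 libraries took no part in choosing the regions. A top TCF7L2 peak overlapped 13.4%, 12.8% and 12.2% of the gained regions in control libraries 1, 2 and 3 and 31.2%, 22.5% and 19.9% in prednisolone libraries 1, 2 and 3. Every prednisolone library was above every control library. The mean was 12.8% ± 0.643 (SD, n = 3) in control cells and 24.5% ± 5.94 (SD, n = 3) after prednisolone, a difference of 11.7 percentage points and a ratio of 1.92. No p-value is given for a score over chosen regions, and an exact two-sided permutation test of 3 libraries against 3 cannot go below 0.1. Most top TCF7L2 peaks had a −log10 q-value under 2. Once these were set aside, the shares were 5.73%, 6.13% and 7.21% in the control libraries and 19.1%, 8.20% and 7.71% in the prednisolone libraries. The difference was then 5.30 points, with prednisolone 2 and 3 close to the highest control.

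Over all 43042 LEF1 regions the same libraries moved the other way. The share with a top TCF7L2 peak was 17.8%, 15.9% and 18.1% in control cells and 13.2%, 10.6% and 9.72% after prednisolone. The means were 17.2% ± 1.17 and 11.2% ± 1.81 (SD, n = 3 each), a difference of −6.07 points with no overlap between the groups. At the lost LEF1 regions the mean went from 20.2% to 5.94%, and at the 5460 regions with a top LEF1 peak in all 6 lists from 44.3% to 26.8%. More of the top peaks were weak by q-value in the TCF7L2 prednisolone lists than in the TCF7L2 control lists. The part of this in the lower shares was not tested. The gained regions held fewer TCF7L2 control peaks than the regions at large and more TCF7L2 prednisolone peaks. The prednisolone share was not particular to them. Other regions in all 3 LEF1 prednisolone lists had means of 21.4%, 21.5% and 26.8% with 1, 2 and 3 LEF1 control lists. Their TCF7L2 control means were 22.6%, 27.3% and 44.3%.

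**Figure D2:**
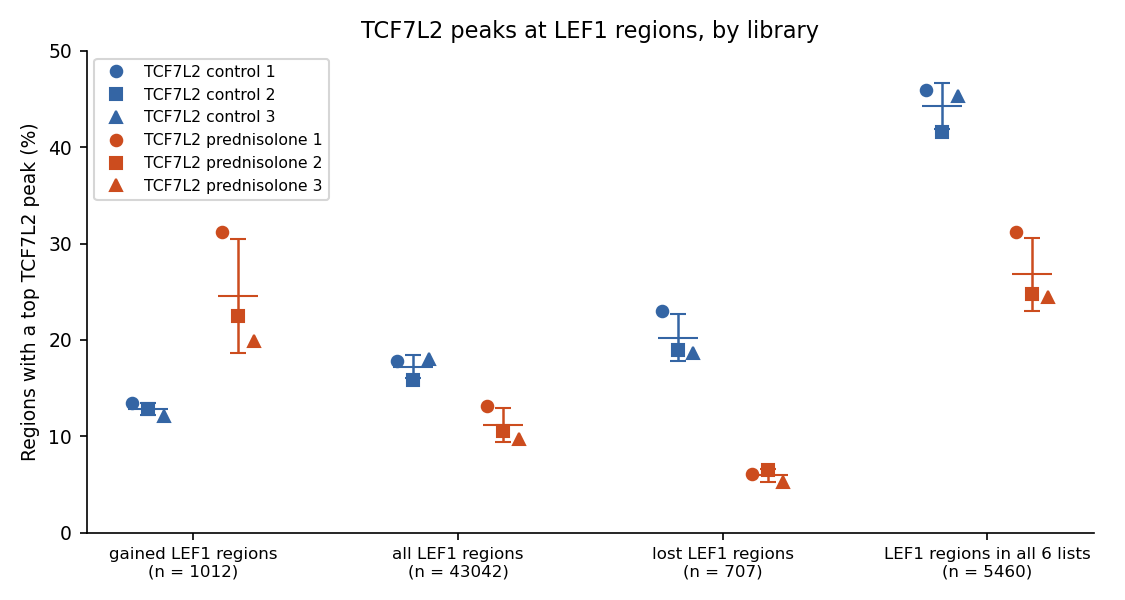
Share of LEF1 regions, in percent, that a top TCF7L2 peak of each library overlapped, for the gained regions, all regions, the lost regions and the regions found in all 6 LEF1 lists; points are libraries, horizontal marks are group means and bars are SDs (n = 3). The prednisolone libraries lie above the controls at the gained regions (24.5% against 12.8%) and below them in the other 3 sets.

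The libraries also differed in a technical feature that crossed the treatments. The shortest peak was 158 to 167 bp in TCF7L2 control 2 and 3 and prednisolone 1, and 193 to 201 bp in TCF7L2 control 1 and prednisolone 2 and 3. Within the first set the share of gained regions with a TCF7L2 peak was 12.5% in control cells and 31.2% after prednisolone, and within the second it was 13.4% and 21.2%. All LEF1 regions went from 17.0% to 13.2% in the first set and from 17.8% to 10.2% in the second, and each set has a single library in 1 of its arms. The part of peak length in the results was not tested. The LEF1 libraries divided likewise, with shortest peaks of 164 to 165 bp in control 1 and prednisolone 2 and 3 and of 187 to 197 bp in the other 3.

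The pattern of LEF1 over the lists went along with the TCF7L2 difference. Among regions with no LEF1 control list, the TCF7L2 difference was −0.88 points with a single LEF1 prednisolone list (7825 regions), 1.55 points with 2 (2322 regions) and 11.7 points with all 3. Among regions in all 3 LEF1 prednisolone lists, the difference was −1.22 points with 1 LEF1 control list (1149 regions), −5.76 with 2 (1771 regions) and −17.5 with 3. The groups overlapped in the regions with 2 prednisolone lists and no control list, at 9.86%, 11.8% and 12.3% in the TCF7L2 control libraries and 17.0%, 11.8% and 9.78% in the prednisolone libraries, so that the mean of 1.55 rests on prednisolone 1.

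**Figure D3:**
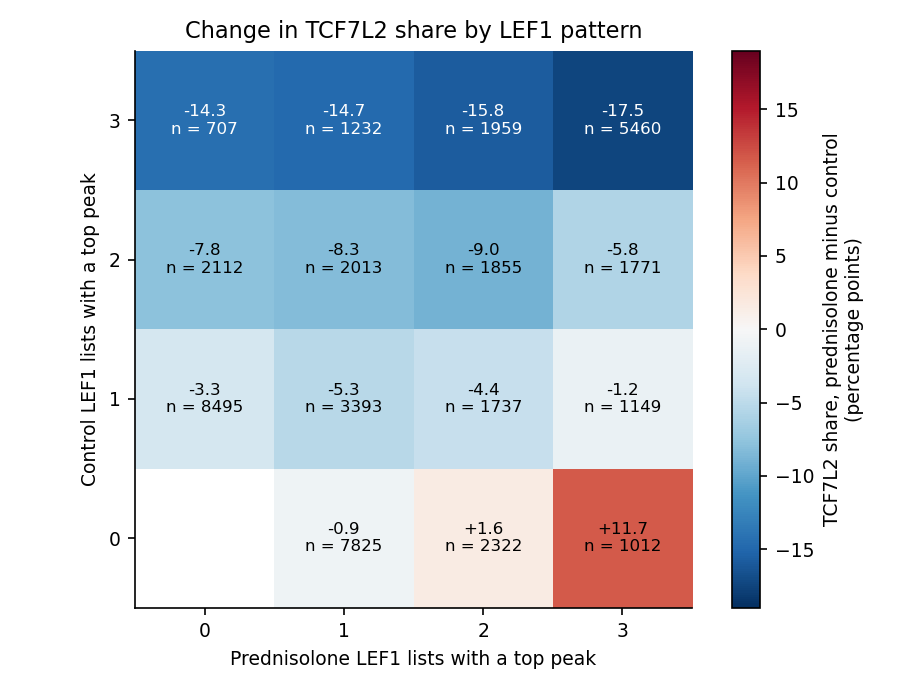
Difference in the TCF7L2 share between prednisolone and control libraries (percentage points, mean of 3 minus mean of 3) for LEF1 regions grouped by the number of LEF1 prednisolone lists (x axis) and LEF1 control lists (y axis) with a top peak; n is the number of regions. The gained regions, lower right, stand at 11.7 points, and the regions in all 6 lists, upper right, at −17.5.

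Within the gained regions, the TCF7L2 difference lay mainly in those with the best LEF1 ranks. The 1012 regions were divided by worst rank into 4 groups of equal size. In the first, with worst ranks of 17 to 9870, a top TCF7L2 peak was found at 14.2%, 13.8% and 11.5% of regions in the control libraries and at 50.6%, 42.3% and 32.8% in the prednisolone libraries, a mean of 13.2% ± 1.5 against 41.9% ± 8.90 (SD, n = 3 each). In the second group, the mean was 13.4% ± 2.40 against 22.4% ± 7.18. The third group had 9.62% ± 1.27 against 16.5% ± 4.58. In the last group, with worst ranks of 17522 to 19949, control libraries had 15.4%, 14.2% and 15.4% and prednisolone libraries 22.1%, 17.0% and 13.0%, so that the groups overlapped and the means of 15.0% ± 0.685 and 17.4% ± 4.56 differed by less than the spread of the prednisolone libraries. Without prednisolone 1 the mean difference in the last group was 0.

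These rank groups also differed in width, with a median of 1771 bp in the first and 1270 bp in the last, and a wider region can catch more peaks. When TCF7L2 peaks were counted in a fixed window of 250 bp to either side of the strongest LEF1 summit, the first group had 10.8% in control cells and 39.4% after prednisolone, and the last had 13.7% and 15.4%.

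**Figure D4:**
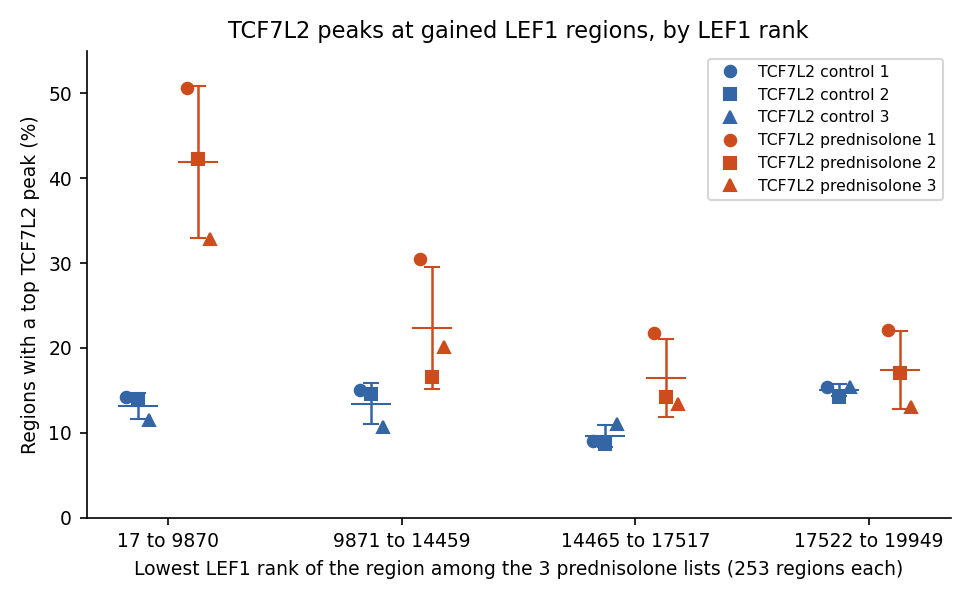
Share of gained LEF1 regions, in percent, with a top TCF7L2 peak in each library, by worst LEF1 rank in 4 groups of equal size; points are libraries, horizontal marks are means and bars are SDs (n = 3). The separation of prednisolone from control libraries is 41.9% against 13.2% in the group of the best ranks, and the libraries overlap in the group nearest the limit.

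Regions with less LEF1 in control cells also had less TCF7L2 there. Where all 3 full control lists held a LEF1 peak (855 regions), TCF7L2 means were 14.0% in control and 23.3% in prednisolone libraries. They were 9.09% and 32.2% in the 88 regions with a LEF1 peak in 2 full control lists, 4.76% and 35.7% in the 42 with 1, and 0% and 22.2% in the 27 with none. The last value rests on 4 to 8 regions per prednisolone library.

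Region by region, 36 of the 1012 gained LEF1 regions had a top TCF7L2 peak in all 3 TCF7L2 prednisolone libraries and no control library (3.56%, 95% interval 2.50% to 4.89%). The same pattern was seen at 134 of all 43042 LEF1 regions (0.311%), so that 26.9% of these 134 were gained LEF1 regions. At the lost LEF1 regions there were 0 of 707, and at the regions in all 6 LEF1 lists 23 of 5460 (0.421%). The reverse TCF7L2 pattern was found at 3 gained regions (0.296%), against 619 of all LEF1 regions (1.44%). A top TCF7L2 peak in at least 1 prednisolone library was present at 478 gained regions (47.2%, against 23.3% of all LEF1 regions) and in at least 1 control library at 285 (28.2%, against 32.4%). In none of the 6 libraries did 417 have one (41.2%, against 58.5%). At the regions in all 6 LEF1 lists the same shares were, in this order, 48.2%, 68.8% and 23.4%.

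The 36 regions lay on 18 chromosomes. At 17 of them the worst LEF1 rank was within the first 5000, a bound met by 82 gained regions in all. In the 4 groups by worst rank they numbered 27, 6, 2 and 1. The TCF7L2 fold had a median of 5.42, 4.43 and 4.07 in prednisolone libraries 1, 2 and 3 and, where a peak was listed, of 2.29, 2.51 and 2.57 in the controls, which listed 22, 23 and 25 of the 36. The order of these medians follows from the way the 36 were picked. In the full lists 3 of them had no TCF7L2 control peak at all and 11 had one in all 3 control libraries. LEF1 control peaks were absent from the full lists at 2 and present in all 3 at 23.

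By the LEF1 order the first of the 36 were the leading region on chromosome 16, chr3:119625469-119628759 and chr22:33248010-33250710, all described above, and then chr2:43438955-43440921. There LEF1 had 14.2, 13.0 and 15.9 after prednisolone and 4.30, 4.33 and 2.73 in control cells, and TCF7L2 had 6.21, 5.04 and 4.22 against 2.05 in control 1 and 2.21 in control 3. Next came the region on chromosome 8 that no control list of either antibody held, and chr14:64460727-64464437, where LEF1 had 11.7, 17.2 and 16.2 against 2.72 and 3.95 in control 1 and 2, and TCF7L2 had 3.76, 3.38 and 4.81 against 2.61 in control 2. All 6 have a top TCF7L2 peak in every prednisolone library and in no control library by the way they were picked.

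In the full TCF7L2 lists, down to their weakest peaks, 58.6%, 56.5% and 58.4% of the gained regions held a peak in the control libraries and 78.2%, 68.0% and 56.9% in the prednisolone libraries. Prednisolone 3 fell among the controls in this count. Its list was the shortest of the TCF7L2 lists, at 144091 peaks against 317316 to 395786 in the others. Across the gained regions where a TCF7L2 library listed a peak, the Spearman correlation of the mean LEF1 prednisolone fold with the TCF7L2 fold was 0.298, 0.289 and 0.164 in prednisolone libraries 1, 2 and 3 (791, 688 and 576 regions) and 0.008, −0.027 and −0.047 in control libraries 1, 2 and 3 (593, 572 and 591 regions). These are descriptions across regions, over a different subset in each library, with no p-value.

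Distances between the summits of both factors were read only where a top TCF7L2 peak overlapped the region, which limits how far apart they can lie. The 3 LEF1 prednisolone summits of a gained region spread over a median of 122 bp, against 118 bp at the regions in all 6 lists. The TCF7L2 summit lay a median of 87, 129.5 and 148 bp from the strongest LEF1 summit in prednisolone libraries 1, 2 and 3, over 316, 228 and 201 regions, and 151, 107 and 119 bp in the controls, over 136, 130 and 123 regions. The medians of the treatments overlapped. At the regions in all 6 LEF1 lists the TCF7L2 medians were 118, 128.5 and 124 bp in prednisolone libraries 1, 2 and 3. They were 102, 117 and 103 bp in control libraries 1, 2 and 3, so such distances were not particular to the gained regions.

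LEF1 libraries were also read at regions chosen without them. Regions were chosen by the same rule on 2 prednisolone and 2 control LEF1 libraries, in the 9 possible ways, and read in the 2 libraries left out. Between 2098 and 3005 regions were chosen. The prednisolone library left out had a top peak at 48.8% to 67.4% of them (mean 60.5%), and the control library left out at 20.4% to 28.7% (mean 24.8%). The difference was 23.4 to 41.8 points, with a mean of 35.8, and it was above 0 in all 9 ways. Over all regions of each choice the means were 44.4% and 43.8%. The 9 ways share libraries and are not replicates, and these regions are another set than the 1012, chosen from the same 6 lists.

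Prednisolone 1 stood apart in this reading. Where it was the library left out, it had a top peak at 48.8% to 49.8% of the chosen regions, against 65.1% to 67.4% for prednisolone 2 or 3. It was the only prednisolone LEF1 library in the set with the longer shortest peaks, and the part of this in the lower share was not tested.

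**Figure D5:**
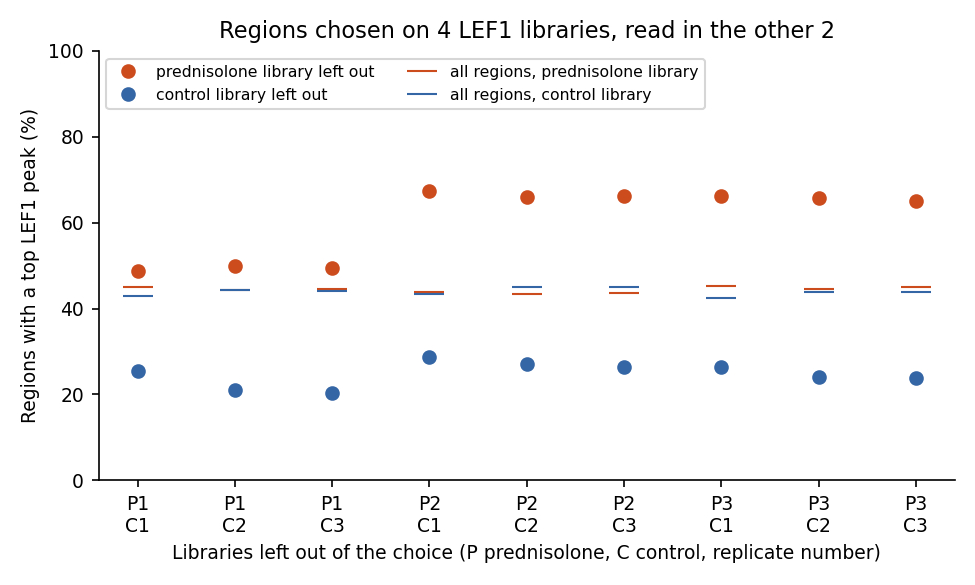
Share of regions, in percent, with a top LEF1 peak in the libraries left out when regions were chosen on the other 4 LEF1 libraries, for the 9 ways of leaving out 1 prednisolone and 1 control library; short lines give the same share over all regions of that choice. The left-out prednisolone library lies at 48.8% to 67.4% and the left-out control library at 20.4% to 28.7%.

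The gained regions were 253 to 6575 bp wide, with a median of 1424.5 bp, and covered 1.64 Mb. They were wider than LEF1 regions at large (median 1183 bp) and narrower than those in all 6 lists (median 2272 bp). Width depends on how many lists a region merges. The widest, chr4:147287594-147294168, had LEF1 folds of 14.2, 17.9 and 8.30 after prednisolone, and its 3 prednisolone summits spanned 3219 bp. The widest after chr5:54204387-54210879 was chr2:43356216-43362163, 5948 bp, with summits spanning 3042 bp and LEF1 at 5.45, 10.6 and 6.13 against 5.15, 4.96 and 3.83. Its groups were separated by little.

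Gained regions lay on every chromosome of the lists, from 2 on Y and 9 on chromosome 21 to 91 on chromosome 1. As a share of the LEF1 regions of a chromosome they ranged from 1.66% on chromosome 21 to 3.91% on X (35 of 896), with 3.43% on chromosome 16 and 3.01% on chromosome 20. Of the 1012, 158 lay in 71 groups whose members were less than 50000 bp apart, and 13 of these groups had 3 or more. Such groups were not counted for other LEF1 regions, so grouping cannot be called a trait of the gained ones.

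The largest group held 5 gained regions in 97.4 kb, chr11:113966911-114064290, and was chosen for description after its values were seen. In the order of their positions, its first region had LEF1 folds of 6.40, 8.48 and 7.44 after prednisolone and of 3.13, 3.92 and 3.41 in control cells. The second had 8.34, 7.20 and 8.69 against 4.47, 4.47 and 3.78. The third had 6.0, 5.60 and 4.75, with 2.20 in control 1 and 1.74 in control 3. These first 3 were moderate and had TCF7L2 top peaks in 1 prednisolone library each.

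The fourth region of the group, chr11:114048289-114052673, was the strongest. LEF1 had 8.53, 23.3 and 21.1 there after prednisolone and 1.73, 2.80 and 2.50 in control cells, and TCF7L2 had 7.81, 7.33 and 8.02 against 2.93, 2.61 and 1.81. It was the only region of the group with TCF7L2 in all 3 prednisolone libraries and no control library among the top peaks. The fifth was the region at chr11:114063202 described above, without a LEF1 control peak. The second largest group, chr9:35910725-35978771, held 4 gained regions, none with that TCF7L2 pattern.

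Which regions are gained depended on the ranking more than how many there were. When LEF1 peaks were ranked by the authors' p-value in place of the fold, 1040 regions met the rule, of which 485 were among the 1012 (47.9% of the 1012, 46.6% of the 1040). With 10000 peaks per list 263 of the 1012 were found again, and with 30000 peaks 588. Across 10 other settings, leaving out each LEF1 library included, 167 regions (16.5%) were found every time. Of the leading 12, 9 were among these, and the regions at chr16:77793157, chr12:93696040 and chr2:206643932 were missed only with 30000 peaks per list, a limit that their best control peak passes.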

How the data were processed

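The 12 peak lists of the LEF1 and TCF7L2 libraries were used, and the IgG sample was not analysed here. Peaks were called with MACS2 on hg19, per the submitters' processing notes, with 1 list per replicate. The MACS2 version, the aligner and the control library are not given in the sources used here. For each peak the authors deposited a fold ratio over background, a −log10 p-value, a −log10 q-value and a summit. These served only to rank and filter peaks within a list and, unscaled, to describe them. The weakest peaks of each list had a p-value of 0.05. No pair of lists shared more than 0.0737% of the intervals of the shorter one.

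Regions and shares were computed with Python 3.11.15, numpy 2.4.6, pandas 2.3.3 and scipy 1.17.1. The code of the rule was run on simulated lists with strong planted regions and little noise. That run checks the code only and does not bear on how stable the members are in these data. Peaks of equal fold at the limit were taken in file order, which concerned 9540, 11442 and 10616 peaks in TCF7L2 control 2, control 3 and prednisolone 1, and at most 1762 in a LEF1 list. Of the gained regions 48 rest on such a prednisolone peak, and 19 have a control peak left out in this way. The regions named were the 12 of best worst rank, the 6 best without a peak in a full control list, the 6 best with the TCF7L2 pattern, the 3 widest and those next to the limit. The regions, the rule and the lists were chosen with earlier results of these data known. Shares have exact Clopper-Pearson intervals. Same-numbered control and prednisolone libraries did not deviate together (correlations −0.0447 to −0.0046). No sequence or annotation of hg19 was used here, so no region was assigned to a gene, promoter or motif.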

Additional observations from a re-analysis of the deposited data

How the results depend on the processing

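The number of gained LEF1 regions, 1012, was 622 with 10000 peaks per list and 27 when no weaker control peak was allowed. The latter setting asks for more by construction. A limit of 10000 asks for more of the prednisolone lists and for less of the controls, and 42.3% of its 622 regions were among the 1012. Leaving out 1 LEF1 library asks for less and gave 1368 to 2243, the highest without prednisolone 1. The share with a peak in all 3 full control lists, 84.5%, was 41.0% when only control peaks of −log10 q of at least 2 counted, 87.4% when ranked by p-value, 90.5% with 10000 peaks, 77.3% with 30000, and 82.9% to 88.5% without 1 library. The TCF7L2 difference of 11.7 points was 5.30 with TCF7L2 peaks of −log10 q of at least 2, where the lowest prednisolone library (7.71%) was next to the highest control (7.21%), 9.22 with 5000, 15.4 with 50000, 13.6 by p-value, 9.85 with the full lists, where the groups overlapped, and 8.38 to 14.1 without 1 TCF7L2 library. With the replicate block the mean is the same 11.7 by arithmetic, so it is no check. The differences were 17.8, 9.68 and 7.71 by replicate number (SD 5.34), although same-numbered libraries did not deviate together. Whether the numbers mark pairs is not settled by that. At all LEF1 regions the difference of −6.07 was −1.80 with 5000 TCF7L2 peaks, −7.90 with 50000 and −14.7 with the full lists. The 36 regions with the TCF7L2 pattern were 19, 56 and 14 with 5000 peaks, 50000 peaks and −log10 q of at least 2 (1.88%, 5.53% and 1.38%). Over all LEF1 regions the shares were then 0.218%, 0.432% and 0.144%. Leaving out 1 library asks for fewer lists and gave 38 to 70, with 56, 65 and 70 without prednisolone 1, 2 and 3 (5.53%, 6.42% and 6.92%). Over all LEF1 regions the pattern also became more frequent without prednisolone 1, 2 and 3, at 0.688%, 0.734% and 0.822% against 0.311%. In the first of the 4 groups by LEF1 rank the TCF7L2 difference was 16.2 to 35.0 points over the alternatives, with no overlap. The left-out LEF1 difference was 41.5 points by p-value. The cause of these shifts was not tested. The fixed window around the summit, the alternatives for the TCF7L2 pattern, for all regions and for the rank groups, and the regions chosen with other LEF1 lists were added after the data were seen. The planned promoter, motif and gene-list results and their alternatives were not run. The weak TCF7L2 peaks at the limit set what can be seen of that factor.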
